A study of Arabidopsis thaliana with 3 samples.

Results

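The regions described here are the SEP3-AG(IAP1) binding peaks that hold no near-canonical CArG box. A CArG box is CC, 6 bases each A or T, and GG, and a peak was taken when no window of 10 bp on either strand of its 400 bp of TAIR10 sequence matched that pattern with 1 mismatch or none. Of 3552 peaks, 712 met this rule (20%, 95% exact interval 18.7 to 21.4%). The other 2840 peaks held a perfect box (567 peaks) or a box with 1 mismatch (2273 peaks). Among the 712 peaks, the closest window had 2 mismatches in 710 and 3 mismatches in 2. In what follows these 712 are called the peaks without a near-canonical box.

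The peaks come from sequential DNA affinity purification followed by sequencing (seq-DAP-seq), in which a pair of tagged proteins is made in vitro, purified by one tag and then the other, and mixed with sheared genomic DNA. The proteins were Arabidopsis SEPALLATA3 (SEP3) with a FLAG tag and AG(IAP1) with a 5xMyc tag, a chimera of AGAMOUS (AG) that carries the intervening (I) domain of APETALA1 (AP1). The DNA came from 2-week-old Arabidopsis plants grown on 0.5 MS medium under long days, and the protein came from a coupled transcription and translation reaction. There was 1 group of 3 replicates, peaks were called against input DNA, and the deposited list is the consensus of the replicates. The DNA was naked and the complex was made outside the plant, so the list says nothing of chromatin or of the cells in which a site is used. It holds positions alone, with no read count or peak height, so no spread between replicates can be given, and the depth behind a peak is unknown from it. All p-values below compare regions, or zones of the same regions, within this list.

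MADS proteins bind DNA as dimers, each partner laying an alpha helix along the minor groove of the A and T run and contacting the C and G bases at one end. SEP3 pairs with most floral MADS proteins, AG specifies stamens and carpels, and AP1 acts in the floral meristem and in sepals and petals. The SRF class of MADS protein is known for the CArG box, and the MEF2 class of animals for a longer run of A and T. Plant MADS proteins have been known to bind boxes of both kinds.

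A palindromic matrix of 16 bp was fitted on the other 2840 peaks only, so that none of the 712 shaped it, and was then used to find the best site in each of the 712. The matrix is a box of 10 bases with 3 flanking bases on both sides, and a score is the log2 of the ratio between matrix and base composition, in bits. The 10 peaks with the highest score are shown first, since their sites are the closest to the consensus that this set offers. The capitals mark the 10 bases of the box, and coordinates are those of the 16 bases in TAIR10.
chr4:6506551-6506566, plus strand: tttCCCAAAAGGGaaa
chr4:6507924-6507939, plus strand: tttCCCAAAAGGGaaa
chr5:25693437-25693452, minus strand: tttCCAGATTGGGaaa
chr1:11750132-11750147, minus strand: tttCCAAATCGGGaaa
chr5:17823038-17823053, plus strand: tttCCATTTGGGGaaa
chr1:1716468-1716483, minus strand: tttCCATAAGGGGaaa
chr1:21202530-21202545, minus strand: tttCCAGATTTAGaaa
chr4:2185319-2185334, minus strand: tttCCAAATCTAGaaa
chr3:349911-349926, minus strand: tttCTAAAAATAGaaa
chr5:21900985-21901000, plus strand: tttCTAAAAATAGaaa

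All 10 sites had TTT before the box and AAA after it, and all had 2 mismatches. The first 6 kept CC and GG at the ends and had both mismatches in the A and T run. The seventh and the eighth had 1 mismatch in the run and 1 at an end, and their boxes ended in TAG. The last pair had A or T at the second and the ninth base. Their scores lay between 13.9 and 14.5 bits, and 1 further peak with the same 16 bases as the last pair tied at 13.9 bits.

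The sites lay within 22 bp of the peak centre. The first pair lay upstream of AT4G10530, at 2024 and 647 bp from its start as measured from the peak midpoints, which are 1377 bp apart, and these 2 peaks share their site sequence. Midpoints of the third and the seventh peak lay in introns of AT5G64230 and ZIP4 (AT1G56590), and those of the fourth, the fifth and the sixth in coding exons of ABCI7, ALA2 and AT1G05710. ALA2 encodes an ATPase of the phospholipid flippase family. The eighth midpoint lay 8817 bp upstream of AT4G04415, the ninth in an untranslated exon part of SRG3, 88 bp after its start, and the tenth between genes, 2865 bp from the start of CUC2 on the far side of that gene.

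The 5 peaks with the lowest best score are shown to mark the other end of the range, from 3.11 to 3.65 bits. The capitals again mark the 10 bases aligned with the box.
chr2:8968858-8968873, plus strand: ctgCTCCATAGAGata
chr5:24970573-24970588, plus strand: tttCCAAAACAAAtat
chr5:10298871-10298886, minus strand: tttATAAAATTGCata
chr4:12168433-12168448, plus strand: catACCAAAGAGGaaa
chr2:1958294-1958309, plus strand: agaACAAAACGGGaaa

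These sites had 3 mismatches, except the first, which had 5 and lay 172 bp from the centre of a peak with 54.2% GC in a coding exon of AT2G20830. The other 4 lay within 42 bp of the centre. The fourth is in an intron of CRK18, and its peak is 1 of the 2 whose closest box had 3 mismatches anywhere. The other such peak, chr4:11669992-11670391, lay within AT4G22020 and had 56.0% GC, and its best site scored 5.80 bits.

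The best matrix site of a peak without a near-canonical box lay at the centre of the peak about as often as in the other peaks. The central zone was defined as site midpoints from 50 bp before to 50 bp after the peak centre, and the outer zone as those over 130 and up to 180 bp away, each 100 positions in all. The best site was central in 618 of the 712 peaks (86.8%, exact 95% interval 84.1 to 89.2%) and outer in 29 (4.07%, 2.74 to 5.80%), an excess of the central zone with an exact two-sided binomial p of 7.05e-145. In the other 2840 peaks it was central in 86.1% (84.8 to 87.3%) and outer in 3.24% (2.62 to 3.96%). The median distance from the centre was 18 bp in the peaks without a near-canonical box and 17 bp in the other peaks. In 174917 unbound windows of 400 bp without a near-canonical box, the best site was central in 25.7% and outer in 26.2%. The intervals of the 2 sets of peaks overlap, and their difference was not tested.

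**Figure D1:**
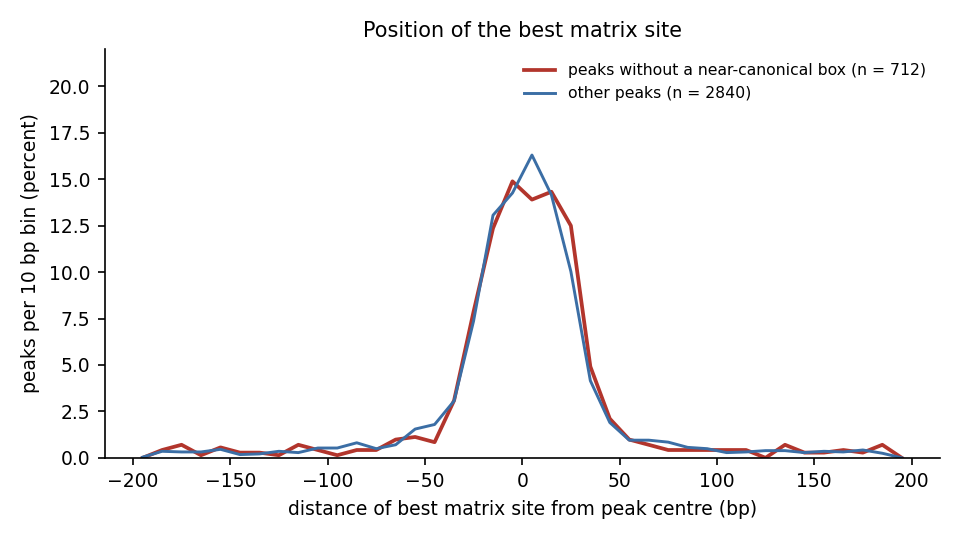
Position of the best matrix site. The horizontal axis is the distance of the best site from the peak centre in bp, and the vertical axis is the percent of peaks in each bin of 10 bp, for the 712 peaks without a near-canonical box and the 2840 other peaks. Both lines have their maximum near the centre, with 68.8% of the peaks without a near-canonical box and 68.6% of the other peaks within 25 bp of it.

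The sites scored lower than in the other peaks. This follows in part from the rule, which bars the highest-scoring boxes, and is given as a description. The best score had a median of 8.89 bits in the peaks without a near-canonical box (quartiles 7.31 and 10.9, range 3.11 to 14.5) and 11.1 bits in the other peaks (quartiles 9.06 and 13.1, range 1.15 to 18.7). A score of 7.69 bits is reached by 1 site per 2000 bp of the genome. This score was reached in 485 of the 712 peaks (68.1%) and in 2518 of the 2840 other peaks (88.7%). In unbound windows under the same rule it was reached in 8.77%, and in 10.5% after weighting them to the GC content of the 712 peaks in bins of 2 percentage points. Of the peaks without a near-canonical box, most had 1 site above this score (375 peaks, 52.7%), 98 peaks (13.8%) had 2, 12 peaks (1.69%) had 3 or more, and 227 peaks (31.9%) had none. The shares in the other peaks were 54.3% with 1 site, 28.3% with 2, 6.09% with 3 or more and 11.3% with none.

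**Figure D2:**
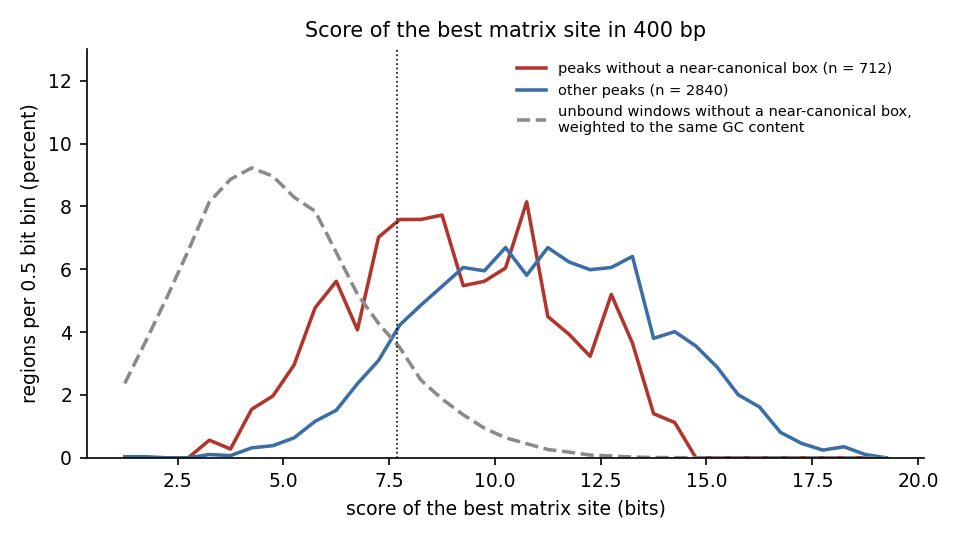
Score of the best matrix site in 400 bp. The horizontal axis is the score in bits and the vertical axis is the percent of regions in each bin of 0.5 bit. Lines are the 712 peaks without a near-canonical box, the 2840 other peaks, and unbound windows without a near-canonical box weighted to the GC content of the 712. The dotted line is at 7.69 bits, and scores under 1 bit, which unbound windows have, are left out. The line of the 712 peaks, with a median of 8.89 bits, lies between those of the unbound windows and of the other peaks.

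On either side of the threshold of the rule the values were as follows. The median best score, which the rule itself lowers since the matrix scores the same box, was 13.3 bits in the 567 peaks with a perfect box, 10.5 bits in the 2273 with 1 mismatch and 8.91 bits in the 710 with 2. The best site was central in 87.7%, 85.7% and 86.8% of them, in the same order. The mean GC content was 32.9%, 32.4% and 32.4%.

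The boxes with at most 2 mismatches lay at the peak centres. Such a box was found in the central zone of 689 of the 712 peaks (96.8%, exact 95% interval 95.2 to 97.9%) and in the outer zone of 476 (66.9%, 63.3 to 70.3%). It was in the central zone alone in 228 peaks and in the outer zone alone in 15 (exact two-sided McNemar p = 4.53e-50). A box this loose is common: 98.7% of unbound windows under the same rule and of the same GC content held one somewhere in 400 bp, and 70% held one in their central zone. The rule bars closer boxes from both zones alike. Mean GC content was 29.6% in the central and 33.8% in the outer zones of these peaks. What part the rule or this GC content has in the difference was not tested.

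The form with 8 A or T bases was also more common at the centre than at the edges. It is C, 8 bases each A or T, and G, and so differs from the CArG box at the second and the ninth base. It was in the central zone of 221 of the 712 peaks (31%, 27.7 to 34.6%) and in the outer zone of 66 (9.27%, 7.24 to 11.6%), a 3.35-fold difference (exact McNemar p = 5.90e-25, adjusted p = 3.84e-24 over 13 forms). Somewhere in their 400 bp, 343 of the peaks held it (48.2%), against 32.7% of the unbound windows under the same rule and of the same GC content. In the other peaks, which have a closer box to offer, it was in the central zone in 16% and in the outer zone in 8.70%. The weighting of unbound windows is by GC content over the whole 400 bp and does not match the zones.

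A related form is the MEF2 form, which is a pyrimidine, TA, 4 bases each A or T, TA and a purine. It was central in 121 of the 712 peaks (17.0%, 14.3 to 20%) and outer in 28 (3.93%, 2.63 to 5.63%), a 4.32-fold difference (exact McNemar, adjusted p = 1.69e-15). In the other peaks it was central in 9.37% and outer in 4.89%. Somewhere in 400 bp, 29.1% of the peaks without a near-canonical box held it, against 18.1% of the unbound windows under the same rule and of the same GC content. Both forms were searched on both strands. The part of the lower GC content of the central zones in the differences of both forms was not tested. A MEF2 form that begins with C and ends with G is also a box with 8 A or T bases, so these counts overlap.

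**Figure D3:**
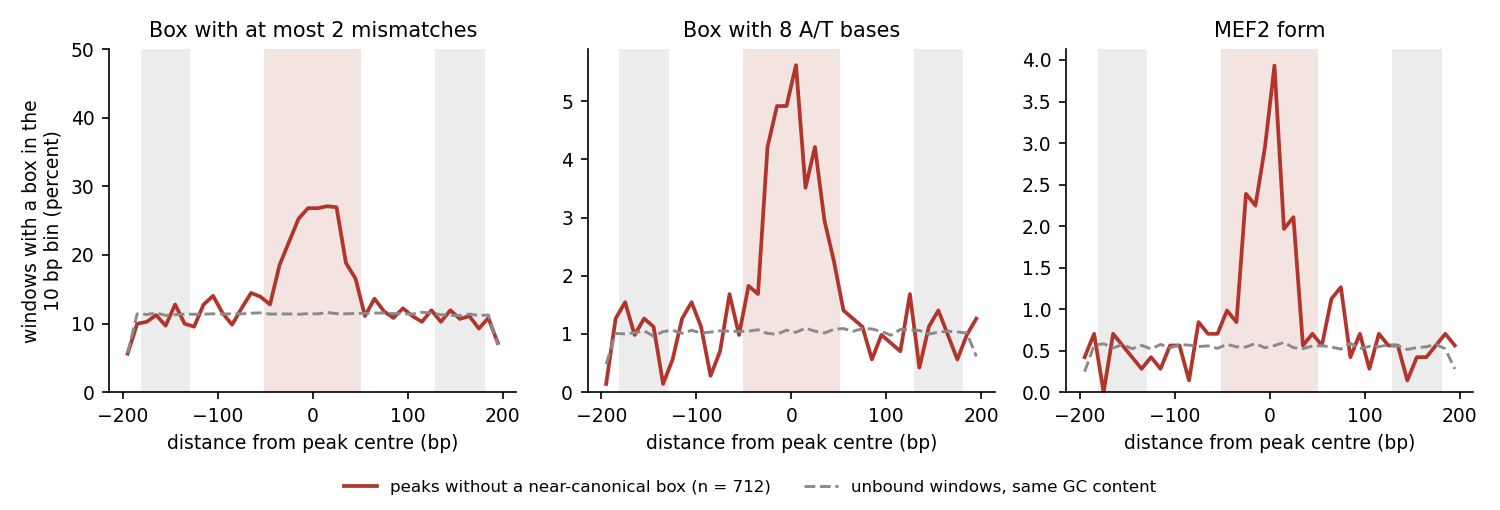
Boxes by distance from the peak centre. The horizontal axes give the distance from the centre in bp and the vertical axes the percent of windows with a box whose midpoint is in the bin of 10 bp, for the 712 peaks without a near-canonical box and for unbound windows under the same rule weighted to their GC content. The pink band is the central zone and the grey bands are the outer zone, and the outermost bins hold fewer possible positions. In all 3 panels the line of the peaks stands above the unbound windows at the centre and near them in the outer zone, as for the box with 8 A or T bases, with 31% of peaks in the central zone and 9.27% in the outer zone.

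Within the box with 8 A or T bases, CT at the start and AG at the end marked the central copies. Of 257 such boxes in the central zone, in 221 peaks, 183 began with CT and ended with AG (71.2%, exact 95% interval 65.3 to 76.7%), against 6 of 68 in the outer zone (8.82%, 3.31 to 18.2%). CTA at the start together with TAG at the end was found in 103 of the central boxes (40.1%, 34.0 to 46.3%) and in 1 of the outer boxes (1.47%, 0.0372 to 7.92%). At least 3 of the 4 bases TT and AA at the outermost flank positions of the 16 bp were present around 130 of the central boxes (50.6%) and 11 of the outer boxes (16.2%). Overlapping boxes were counted each, so these shares are given as a description with counting intervals.

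No excess at the centre passed its test for the box with a shorter run, which few peaks held. CC, 5 bases each A or T, and GG was central in 9 peaks and outer in 9 (1.26% each, exact McNemar p = 1), and anywhere in 3.37%, against 2.69% of unbound windows under the same rule and of the same GC content. It was in the central zone of 0.708% of these unbound windows. With the outer zone from 80 to 130 bp the difference was 0.983 percentage points (exact McNemar p = 0.0654). In the other peaks it was central in 5.42% and outer in 1.41%. The rule bars this box where a further C precedes it or a further G follows it, so it sets part of that contrast. CC, 7 bases each A or T, and GG cannot occur in these peaks, because it contains a box with 1 mismatch, and the count of 0 for it tests nothing.

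A difference between the zones was tested for each place of the 2 mismatches, and the places were not tested against each other. All boxes with exactly 2 mismatches were sorted by where the mismatches lay, and the classes were compared between the zones of the same 712 peaks, with adjustment over 7 classes. Both mismatches in the A and T run were found in the central zone of 67 peaks (9.41%) and the outer zone of 13 (1.83%), a 5.15-fold difference (exact McNemar, adjusted p = 3.17e-10). The first or last base together with the inner base of the other end gave 29.5% central and 12.4% outer (2.39-fold, exact McNemar, adjusted p = 9.86e-15). A mismatch at an end together with 1 in the run gave 55.5% central and 30.1% outer (1.85-fold, exact McNemar, adjusted p = 1.44e-22), and both bases of the same end gave 40.2% and 25.3% (1.59-fold, adjusted p = 3.94e-09). In the other 2 classes the exact test did not pass: the first and the last base together (17.6% central and 14.2% outer, adjusted p = 0.111) and the second and the ninth base where at least 1 was C or G (3.93% and 3.23%, adjusted p = 0.560). The second and the ninth base, both A or T, make the box with 8 A or T bases given above, with its 3.35-fold difference. Neighbouring windows over 1 site can fall in several classes.

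**Figure D4:**
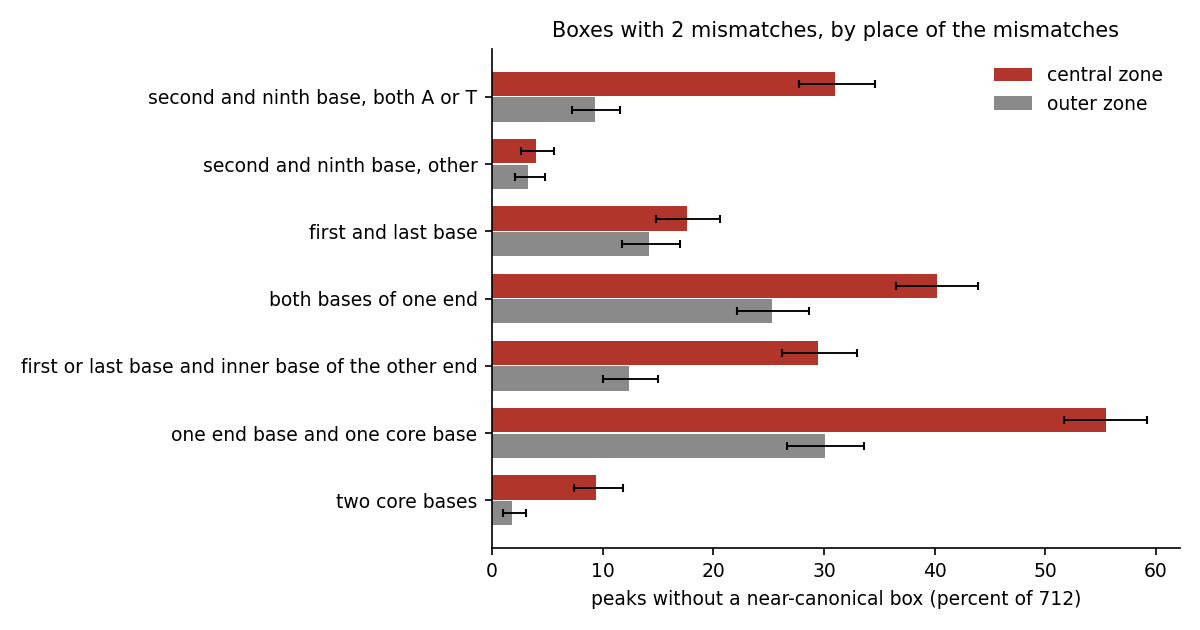
Boxes with exactly 2 mismatches by the place of the mismatches. Bars give the percent of the 712 peaks without a near-canonical box that hold such a box in the central zone (red) and in the outer zone (grey), and whiskers are exact 95% intervals. The first class is the box with 8 A or T bases, with 31% central and 9.27% outer, and the class with 2 core bases, which means both mismatches in the A and T run, has 9.41% and 1.83%.

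To count each peak once, the single best matrix site was sorted in the same way. Of the 618 central best sites, 471 (76.2%) had 2 mismatches, 127 (20.6%) had 3 and 20 (3.24%) had 4. A mismatch at an end and another in the run was the most common kind (187 sites, 30.3%). It was followed by A or T at the second and the ninth base (135 sites, 21.8%), by the first or last base with the inner base of the other end (60 sites, 9.71%), by both mismatches in the run (46 sites, 7.44%) and by both bases of one end (41 sites, 6.63%). The first and last base together made up 2 sites. As the matrix weights its ends, these shares also reflect the scoring.

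Of the positions of the site, the inner bases of the box differed most in their shares from the other peaks. T and A stood at the second and the ninth base in 210 of the 618 central best sites (34.0%, exact 95% interval 30.2 to 37.9%), C and G in 95 (15.4%, 12.6 to 18.5%), and C or G at one of them with A or T at the other in 312 (50.5%). In the 2445 central best sites of the other peaks, T and A stood there in 8.02%, C and G in 45.1% and a mixture in 46.3%. The outer C was kept in 85.8% of positions against 91.6%, and T at the 2 outermost flank positions was seen in 80.1% and 81.6% against 73.9% and 77.9%, counted over both ends of the site. In the A and T run, counted the same way, C and G stood at the third base in 12.1% and 8.66% against 7.24% and 4.13%. At the fourth base they stood in 7.85% and 9.79% against 4.44% and 3.70%. The rule acts on the box bases, so the shares at those bases are a description. The flank shares are also a description, because the 16 bp matrix that picked these sites scores the flanks together with the box.

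The flanks were then examined without letting them choose the site. A matrix of the 10 bp box alone, again from the other peaks, placed the best box in each zone, and the 4 bases at the outermost flank positions (TT before, AA after) were counted. At least 3 of the 4 were present in the central zone in 434 of the 712 peaks (61.0%, exact 95% interval 57.3 to 64.6%) and in the outer zone in 102 (14.3%, 11.8 to 17.1%; exact McNemar p = 3.03e-67). All 4 were present in 23.6% and 1.97%. In the other peaks, at least 3 of the 4 were present in 56.0% of central boxes and 13.1% of outer ones. The share in the central zone was 4.97 percentage points higher in the peaks without a near-canonical box than in the other peaks (95% interval 0.907 to 8.93, two-sided Fisher's exact p = 0.0177). With all 4 bases required, this difference was 3.28 points and did not pass (Fisher's exact p = 0.0569). Counted over both ends of the central boxes, T stood at the outermost flank position in 67.2% against 63.0% in the other peaks. At the next position it stood in 66.8% against 66.4%, and single positions were not tested. These flank tests were added after the data had been seen.

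The 618 central best sites held 365 different boxes, of which 263 occurred once. The commonest are shown with the number of peaks that have them, because they carry the forms counted above. All letters are the 10 bases of the box, read on the strand that comes first in the alphabet.
26 peaks: CTAAAAATAG
23 peaks: CTATAAATAG
9 peaks: CTAAATATAG
9 peaks: CTATAAAAAG
8 peaks: CCAAAAGAAG
8 peaks: CTAATTATAG
7 peaks: CTAAAAACAG
7 peaks: CTATATATAG
6 peaks: ACAAAAATAG
6 peaks: CCAAAAAGAG
6 peaks: CCCAAAAGGG
6 peaks: CTATTTAAAG

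The first pair made up 4.21% and 3.72% of the central best sites of the peaks without a near-canonical box, against 0.153% and 0.164% of the 45001 central best sites of unbound windows under the same rule. In the other peaks they were the best central site in 17 and 19 peaks. The 4 boxes found in 6 peaks made up 0.971% each, against 0.131% (ACAAAAATAG), 0.164% (CCAAAAAGAG), 0.0400% (CCCAAAAGGG) and 0.0556% (CTATTTAAAG) in the unbound windows.

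Short words were also compared between the zones, without any matrix. Of 2080 words of 6 bases, each joined with its reverse complement, 146 (7.02%) differed between the zones of the 712 peaks at an adjusted p under 0.05 (exact McNemar, Benjamini-Hochberg). Of all words tested, 87 (4.18%) were more common at the centre and 59 (2.84%) less common. The largest difference was for AAATAG, in 33.3% of central and 11.1% of outer zones (exact McNemar, adjusted p = 7.86e-22). Next came TAGAAA (32.9% and 13.5%), TAGTAA (26.3% and 8.01%), AAAAAG (38.5% and 22.2%), AAAATA (42.7% and 26.8%), TAAAAA (42.3% and 27.5%), ATAGTA (22.3% and 7.87%), ATTTCC (20.5% and 6.18%), AAAAGG (21.9% and 7.72%) and ATAGAA (24.0% and 9.83%). Of these 10, 5 hold TAG, which ends boxes with 8 A or T bases and also boxes of other kinds, such as ACAAAAATAG above. In TAGAAA the TAG is followed by AAA, as where a box runs on into the flank, while AAAAGG and ATTTCC hold GG or CC. Of the 87 words more common at the centre, 17 hold TAG or its reverse CTA, 14 hold CCA, CCT or a reverse of these, and 12 are A and T alone. The shares of these kinds among all 2080 words were not counted, so these counts do not show which kinds are in excess. All 10 words named ran the same way in the other peaks, as for AAATAG (25.7% of central and 10.4% of outer zones) and AAAAGG (29.3% and 10.5%). Words that overlap come from the same sites and are not independent, and the mean GC content was 29.6% in the central and 33.8% in the outer zones of these peaks.

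Sites of other plant factors were searched in the same way on both strands, with adjustment over the 13 forms. The core of the site of LEAFY, CCANTGG, was less common at the centre, in 3 of the 712 peaks against 16 in the outer zone (0.421% and 2.25%, exact McNemar, adjusted p = 0.00959). Somewhere in 400 bp it was in 4.92% of the peaks without a near-canonical box and 4.78% of unbound windows under the same rule and of the same GC content, which are the windows used for all forms here. GAGAGA was also less common at the centre (5.20% and 11.5%, exact McNemar, adjusted p = 7.56e-05; in 31.7% of the peaks and 27.2% of these windows anywhere). TATAAA, the TATA box, was more common at the centre (26.1% and 17.3%, exact McNemar, adjusted p = 1.44e-04), was in 56.6% of the peaks and 55.0% of these windows, and is contained in CTATAAATAG above. All 3 ran the same way in the other peaks. There CCANTGG was in 0.810% of central and 1.41% of outer zones, GAGAGA in 6.37% and 12.0%, and TATAAA in 21.2% and 18.1%. The other 5 did not pass the exact test: the G-box CACGTG (7 peaks central and 4 outer, adjusted p = 0.829), the TCP core TGGGCC (13 and 16), the W-box TTGACC (23 and 27), the auxin response element TGTCTC (26 and 37, adjusted p = 0.385) and the telo box (9 and 6). They were in 4.63%, 6.74%, 14.6%, 17.4% and 4.21% of the 712 peaks, and in 3.92%, 4.36%, 14.2%, 18.1% and 4.63% of these windows. The lower GC content of the central zones stands beside these counts, and its part in them was not tested.

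In place in the genome, no difference was detected between the peaks without a near-canonical box and the other peaks. Their midpoints fell in coding exons in 48 cases (6.74%), in untranslated exon parts in 124 (17.4%), in introns in 147 (20.6%), in promoters, taken as 1000 bp upstream of a protein-coding gene, in 196 (27.5%) and elsewhere in 197 (27.7%). In the other peaks the shares were 7.57%, 16.8%, 20.2%, 27.5% and 28.0%. None of the 5 classes passed two-sided Fisher's exact test (lowest unadjusted p = 0.473, adjusted p = 1 for all 5). The intervals allow modest differences: for promoters the difference was 0.0633 percentage points (95% interval -3.51 to 3.82), and for coding exons -0.829 (-2.75 to 1.45). The median distance to the nearest start of a protein-coding gene was 926 bp in the peaks without a near-canonical box and 924 bp in the other peaks.

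**Figure D5:**
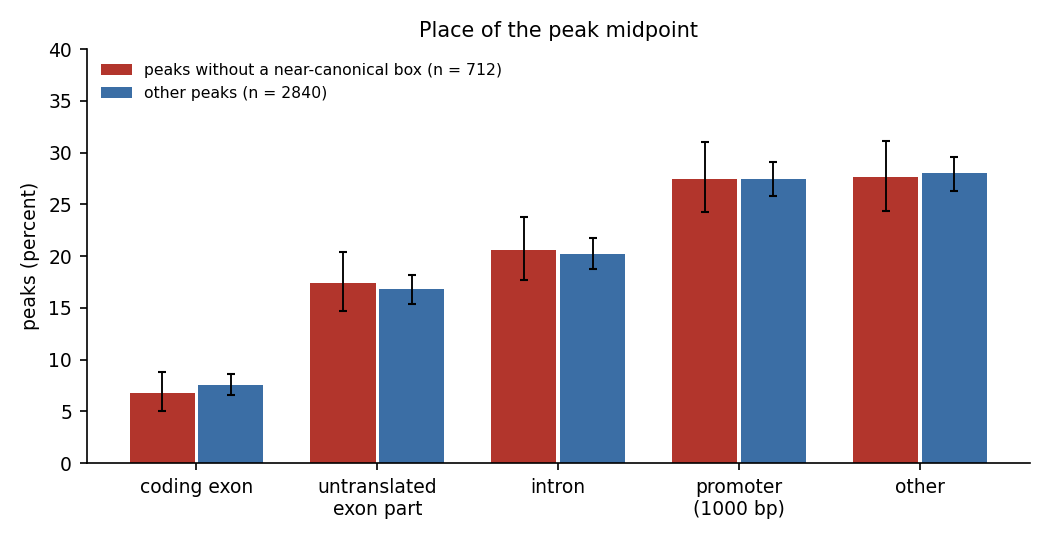
Place of the peak midpoint in the annotation. Bars give the percent of the 712 peaks without a near-canonical box (red) and of the 2840 other peaks (blue) in each class, and whiskers are exact 95% intervals. The pairs of bars are within each other's intervals, as for promoters, with 27.5% in both.

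Base composition, neighbours and repeats passed no test either. Mean GC content was 32.5% ± 5.28 (SD over 712 peaks) in the peaks without a near-canonical box and 32.5% ± 5.05 (SD over 2840 peaks) in the other peaks, a difference of -0.0215 percentage points (95% interval -0.451 to 0.408, permutation p = 0.923). Another peak had its midpoint within 1000 bp in 46 of the 712 peaks (6.46%) and in 232 of the other peaks (8.17%), a difference of -1.71 points (95% interval -3.62 to 0.551, Fisher's exact p = 0.138). Of those 46, 35 had a neighbour with a near-canonical box, and 2840 of all 3552 peaks held such a box. Whether the 35 depart from that share was not tested. No peak of the 712 had over 50% of its 31-base words repeated in the nuclear genome (exact 95% interval up to 0.517%), against 11 of the other peaks (0.387%, Fisher's exact p = 0.136). They made up between 18.3% and 22% of the peaks of each of the 5 chromosomes.

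Genes with known parts in flowering were looked up in 6 lists, together with a list of photosynthesis genes, in a window from 3000 bp upstream of the start to 1000 bp downstream of the end. Of the 134 listed genes, 51 had any peak and 12 had a peak without a near-canonical box, which is 23.5% of those bound. Over all 27444 protein-coding genes, 4945 had any peak and 1091 had one of these peaks, or 22.1% of those bound, so the listed genes were near the general share. For 9 of the 12 these were the only peaks in the window, and over all protein-coding genes this held for 929 of the 1091 (85.2%). With the gene itself and 1000 bp before it as the window, the count was 5 instead of 12. Of the 15 photosynthesis genes, none had a peak of any kind.

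By list, such a peak was found at 3 of the 8 bound floral MADS genes, 3 of the 13 bound other MADS genes of the MIKC type, 3 of the 11 bound flowering time and meristem genes, 1 of the 10 bound sepal, petal and boundary genes, 1 of the 4 bound carpel and ovule genes and 1 of the 5 bound stamen genes. The best site of each of the 12 peaks is shown, so that the sites near the listed genes can be read. The capitals mark the 10 bases of the box.
AP1, chr1:25987976-25987991, plus strand: ttaACAAATTGAGcaa
CAL, chr1:9103353-9103368, minus strand: tctCCCATAAGGGcaa
SEP3, chr1:8597865-8597880, minus strand: aaaCTAAATATAGtat
AGL79, chr3:11908931-11908946, plus strand: ttcACAAAAATAGaaa
AGL19, chr4:12028027-12028042, minus strand: ttaCCAAAAGAAGaaa
SOC1, chr2:18813140-18813155, minus strand: tatACATATGAGGaaa
FT, chr1:24329456-24329471, minus strand: tttCTATTTTCAGcaa
ETT, chr2:14331398-14331413, minus strand: tttCCAAAAGAAGata
TEM1, chr1:8986024-8986039, minus strand: ttaCTAAAAATAGgat
CUC2, chr5:21900985-21901000, plus strand: tttCTAAAAATAGaaa
SPT, chr4:17413613-17413628, minus strand: tttCCATTTCTAGtaa
MS1, chr5:7369451-7369466, minus strand: tttCCCGAAAAGGaaa

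Among the floral MADS genes, AP1 (AT1G69120) had 1 peak in its window, chr1:25987740-25988139, whose midpoint lay 1591 bp upstream of the start. Its best site scored 8.43 bits, 44 bp from the peak centre, and had 3 mismatches. CAL (AT1G26310), a close relative of AP1 that acts with it in the floral meristem, had 1 peak, in an intron 343 bp after the start, with a best site of 9.59 bits that lay 60 bp from the centre. Its box is of the kind with both mismatches in the run. SEP3 (AT1G24260) itself had 3 peaks, of which 1 lacked a near-canonical box. That peak lay 1807 bp upstream of the start and 927 bp from the next peak, and its best site, a box with 8 A or T bases, scored 6.29 bits, under the score of 7.69 bits reached once per 2000 bp.

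The other MADS genes had their sites at various distances. At AGL19 (AT4G22950), which promotes flowering, 1 of 2 peaks lacked a near-canonical box. Its midpoint lay 24 bp upstream of the start, and the site scored 12.0 bits at 7 bp from the centre. At AGL79 (AT3G30260), of the same group as AP1, the midpoint lay 16 bp after the start, in an untranslated exon part, with a site of 9.45 bits at 53 bp from the centre. At SOC1 (AT2G45660, AGL20 in the annotation), which integrates flowering signals, 1 of 3 peaks was of this kind, 1992 bp upstream, with a site of 8.33 bits at 31 bp.

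Of the flowering time and meristem genes, FT (AT1G65480), which encodes florigen, had 1 peak, 1887 bp upstream, with a site of 10.5 bits and 3 mismatches at 22 bp from the centre. TEM1 (AT1G25560), a repressor of FT, had 1 peak 2713 bp upstream with the commonest box of the set, at 9.20 bits. ETT (AT2G33860), an auxin response factor of the gynoecium, had 1 peak 2421 bp upstream with a site of 10.3 bits.

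The 3 genes of organ development had high-scoring sites. SPT (AT4G36930), a bHLH factor of carpel margins, had its peak 467 bp upstream with a site of 12.9 bits at 5 bp from the centre. MS1 (AT5G22260), a PHD-finger protein of the tapetum, had its peak in a coding exon 826 bp after the start, with a site of 12.9 bits at 10 bp. CUC2 (AT5G53950), a NAC factor of organ boundaries, had its peak downstream of the gene, with the site of 13.9 bits already shown, and the nearest gene start to that peak was that of AT5G53940 at 2358 bp.

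To show the surroundings, the central 140 bp of 4 of these peaks follow on the plus strand, with the 10 bases of the best box in capitals. None of these stretches overlaps an untranslated exon part, and that of CAL is within an intron.
AP1, chr1:25987870-25988009: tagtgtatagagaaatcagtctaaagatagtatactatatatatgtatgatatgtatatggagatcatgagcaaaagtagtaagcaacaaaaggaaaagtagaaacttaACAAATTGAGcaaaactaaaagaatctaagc
CAL, chr1:9103231-9103370: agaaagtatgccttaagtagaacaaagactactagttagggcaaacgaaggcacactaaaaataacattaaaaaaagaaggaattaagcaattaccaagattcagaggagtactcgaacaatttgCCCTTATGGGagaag
SEP3, chr1:8597860-8597999: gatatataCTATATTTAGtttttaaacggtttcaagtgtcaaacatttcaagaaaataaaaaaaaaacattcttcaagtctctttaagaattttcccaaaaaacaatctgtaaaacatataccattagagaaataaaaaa
FT, chr1:24329416-24329555: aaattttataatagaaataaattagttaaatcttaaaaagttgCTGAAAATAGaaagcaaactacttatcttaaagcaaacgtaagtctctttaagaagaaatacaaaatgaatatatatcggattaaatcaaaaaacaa

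The GC content of these stretches was 27.9% for AP1, 35.7% for CAL, 22.1% for SEP3 and 20.7% for FT. In AP1, CAL and SEP3 the best box lay toward an edge of the stretch, and in FT it lay nearer the centre, 22 bp from it.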

How the data were processed

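SEP3-AG(IAP1) was assayed by seq-DAP-seq in 3 replicates, beside input DNA. Following the study's methods, the authors checked reads with FastQC, trimmed them with NGmerge, mapped them with Bowtie2 to TAIR10 without organelles, removed duplicates with SAMtools, called peaks with MACS2 and joined replicates with MSPC, then split peaks with several maxima and resized each to 400 bp. Of these, Bowtie2, SAMtools, MACS2 and the build TAIR10 stand in the submitters' processing notes, with versions not given in the sources used here. As deposited, the list holds positions of consensus peaks as the authors made them and no other unit. Stringent joining and the fixed width set which peaks appear and how far from the centre a box can be seen.

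Sequences came from the NCBI reference of the same nuclear assembly (TAIR10.1), whose chromosome lengths hold all peaks, and genes from its annotation. Unbound windows were the 290249 tiles of 400 bp outside peaks without an unknown base, of which 174917 (60.3%) met the rule. At the GC content of all peaks, 57.0% of tiles met it. The matrix was fitted by expectation maximisation (30 iterations, 0 or 1 site per peak, palindromic), starting from boxes with at most 1 mismatch and their flanks in the other peaks. Tests were two-sided: McNemar and binomial tests on zones, Fisher's exact test between sets, and a permutation test of GC content with 100000 draws, with Benjamini-Hochberg adjustment where named. Intervals of shares are exact (Clopper-Pearson), those of differences in shares Newcombe's, and they cover counting error only. The interval of the difference in mean GC content rests on its standard error over peaks. The members and lists were chosen with earlier results of these data known, and the tests of mismatch classes, flanks and other factors were added after the data had been seen. Peaks named were the 10 highest and the 5 lowest best scores and those in the window of a listed gene, and words named were the 10 with the largest difference. All 134 listed genes matched the annotation by identifier, 132 of them also by symbol. The alternatives were other zones, neighbours left out, other matrices, promoter lengths, gene windows and word lengths. The steps were tested on simulated data. The tools were scipy 1.17.1, numpy 2.4.6, pandas 2.3.3 and matplotlib 3.10.9 in Python 3.11.15. Binding intensities were not analysed here.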

Additional observations from a re-analysis of the deposited data

How the results depend on the processing

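The central placing of the box with at most 2 mismatches (26.7 to 42.8 percentage points), of the box with 8 A or T bases (16.4 to 22.8 points) and of the best matrix site (52.4 to 83.3 points) kept its direction and passed its test with a narrower central zone, a nearer outer zone, peaks with a neighbour left out and, for the matrix, a matrix of the 10 bp box or one counted from perfect boxes alone. The number of 6-base words called lay between 104 and 146, and 158 words of 5 bases were called. Place in the genome, neighbours, repeats and GC content passed no test under any alternative tried. Listed genes with such a peak numbered 5 in the shorter window and 11 by nearest gene start. The higher share of flank bases than in the other peaks fell to 3.28 points with all 4 bases required (Fisher's exact p = 0.0569), and was 5.35 and 5.92 points in the other alternatives, added after the data had been seen. The replicates are merged in the list, so none could be left out and no paired analysis was possible because the list has no replicate columns. The intervals given beside the place, neighbour, repeat and GC values are the limit of what these peak numbers can show.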

Other observations

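A near-canonical box just beyond the edge of the 400 bp was found at a share near that of unbound windows. When the peaks were extended by 100 bp at both edges, 175 of the 712 peaks (24.6%, exact 95% interval 21.5 to 27.9%) had one, against 24.2% of unbound windows under the same rule and of the same GC content, and with 50 bp 103 peaks (14.5%) had one against 13.2%.

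Where a peak without a near-canonical box had 2 or more sites at or above 7.69 bits (110 peaks), the 2 best sites lay a median of 55 bp apart (quartiles 36 and 93.2 bp). In the 976 other peaks with 2 or more sites the median was 66 bp (quartiles 41 and 123 bp). This difference was not tested.

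The 94 peaks of the 712 whose best site lay outside the central zone had a median best score of 7.82 bits, against 9.17 bits in the 618 with a central best site. A box with at most 2 mismatches was nonetheless in the central zone of 88 of the 94 (93.6%). Their mean GC content was 31.3% ± 5.94, against 32.6% ± 5.15 (SD over peaks), and 7 of them (7.45%) had a neighbouring peak within 1000 bp, against 39 of the 618 (6.31%).

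Pseudogenes held the midpoints of 14 of the 712 peaks (1.97%) and of 36 of the other peaks (1.27%, Fisher's exact p = 0.157), and non-coding RNA genes those of 13 (1.83%) and 68 (2.39%, p = 0.403).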
